A study of Mus musculus with 4 samples.

Results

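The genes described here are 8 genes of cholesterol synthesis and its control by the transcription factor SREBP2, namely Hmgcs1, Idi1, Fdft1, Sqle, Lss, Cyp51, Insig1 and Srebf2. They were chosen by name, and all 8 were found by Entrez identifier among the 19339 genes listed in each of 4 RNA-seq libraries. The libraries hold RNA of TCRβ+CD8αα+ intraepithelial lymphocytes (IELs), T cells that reside between gut epithelial cells, here with an αβ receptor and CD8 as an αα pair. They were sorted from the small intestine of C57BL/6 mice of 2 genotypes. Control mice carried loxP-flanked Kdm6b alleles (Kdm6bfl/fl), and mice labelled Kdm6b-deficient carried the same alleles and a Cre transgene (Kdm6bfl/fl-CD4Cre). Kdm6b encodes a demethylase of H3K27Me3, a histone mark of repressed genes. In these mice Cre is driven by the CD4 promoter, so that deletion starts in thymocytes and covers all later cells that arise from them. Each group has 2 libraries, numbered 1 and 3, each from RNA pooled over 3 mice of a genotype. Ages and sexes were not given in the sources used here, and p-values measure the spread between pools, which may be technical.

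Cholesterol is made from acetyl-CoA. The first steps supply mevalonate, which is turned into isoprenoid units, joined to squalene, closed to the ring of lanosterol and trimmed to cholesterol. When sterols are low in the endoplasmic reticulum, the escort protein Scap carries SREBP2 to the Golgi, where proteases release its active part, which raises transcription of the enzymes. When sterols are high, Insig proteins hold Scap and SREBP2 back. T cells are known to switch this pathway on when they are activated and grow.

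The promoters of these genes are shown first because SREBP2 is known to act on sterol regulatory elements together with NF-Y, which binds CCAAT, and Sp1, which binds GGGCGG. RefSeq promoters of GRCm38.p6 (250 bases before to 50 after the start) matched 6 of the 8 genes, and Sqle and Fdft1 had no entry. The stretch from 140 to 10 bases before the start is printed 5′ to 3′ on the strand of the gene, with matches to the searched motifs in capitals (CCGCCC is GGGCGG and ATTGG is CCAAT on the other strand). Starts are those of the table, which for Lss is 76531605, downstream of the first base of the gene (76531565). The stretches lie at chr13:119690211-119690341 (plus strand) for Hmgcs1, chr13:8885466-8885596 (plus strand) for Idi1, chr10:76531465-76531595 (plus strand) for Lss, chr5:4104707-4104837 (minus strand) for Cyp51, chr5:28071272-28071402 (plus strand) for Insig1 and chr15:82147129-82147259 (plus strand) for Srebf2.
Hmgcs1: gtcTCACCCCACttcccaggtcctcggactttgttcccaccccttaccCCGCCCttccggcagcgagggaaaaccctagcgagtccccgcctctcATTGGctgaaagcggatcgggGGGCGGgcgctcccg
Idi1: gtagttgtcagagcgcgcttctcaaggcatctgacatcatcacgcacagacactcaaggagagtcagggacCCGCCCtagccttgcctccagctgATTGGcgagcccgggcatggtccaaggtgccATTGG
Lss: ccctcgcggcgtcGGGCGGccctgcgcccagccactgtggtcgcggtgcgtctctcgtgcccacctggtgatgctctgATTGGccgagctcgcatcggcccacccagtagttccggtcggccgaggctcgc
Cyp51: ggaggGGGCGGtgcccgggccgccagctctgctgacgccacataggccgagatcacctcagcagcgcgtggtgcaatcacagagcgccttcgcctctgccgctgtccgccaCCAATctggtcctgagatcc
Insig1: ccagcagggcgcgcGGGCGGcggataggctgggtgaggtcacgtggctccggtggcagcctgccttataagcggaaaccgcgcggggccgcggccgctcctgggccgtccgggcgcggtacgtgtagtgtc
Srebf2: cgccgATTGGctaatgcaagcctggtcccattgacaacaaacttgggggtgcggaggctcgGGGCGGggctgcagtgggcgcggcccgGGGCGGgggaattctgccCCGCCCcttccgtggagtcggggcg

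On either strand of the 300 bases, all 6 promoters held CCAAT and all 6 held GGGCGG. Of all 32851 RefSeq promoters in the table, 37.4% held CCAAT, 35.7% held GGGCGG and 12.8% held both. Among 13 other genes of cholesterol synthesis, 12 had a promoter entry, and 10 of these held both motifs, against 14.5% of all 27025 genes with an entry. The motif TCACCCCAC, the core of the sterol regulatory element, was found in the promoter of Hmgcs1, starting 137 bases before the start, and in 0.55% of all promoters. The looser motif TCACNCCAC, which contains it, was also found in Hmgcs1 among the 6 genes, and in 1.24% of all promoters. Neither form of the element was found in the 12 other cholesterol synthesis genes with an entry (0 of 12). Only exact matches to these motifs were sought, so other forms of the element would be missed. The Insig1 promoter held its CCAAT 216 bases before the start, outside the printed stretch. The shares are over all promoters, not matched for base content or expression. A match is a description of the sequence and does not show that a factor is bound in these cells.

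Levels are given as FPKM, in which fragment numbers are divided by transcript length and by the size of the library, so levels can be compared between genes. Read totals were not used here. The value of a single fragment, taken from the smallest FPKM steps of genes with a single transcript, put the depth of control replicate 3 at 0.967, of Kdm6b-deficient replicate 1 at 0.993 and of Kdm6b-deficient replicate 3 at 0.825 times that of control replicate 1. On that scale the lowest of the 8 genes, Lss, had about 251 fragments per kilobase of transcript in its shallowest library, and Hmgcs1 had about 1511. Kdm6b itself had 16.5 and 16.01 FPKM in control replicates 1 and 3, against 18.2 and 11.1 FPKM in the libraries labelled Kdm6b-deficient replicates 1 and 3 (log2 fold change −0.18, standard error 0.29, limma adjusted p = 0.886). The library labelled Kdm6b-deficient replicate 1 thus did not have less of it than the controls, and FPKM over a whole gene need not fall when part of it is deleted, so libraries are named by their label. The 9 T cell markers found (Cd3d, Cd3e, Cd3g, Cd247, Ptprc, Cd8a, Lck, Zap70 and Itgae) were each above 40 FPKM in every library. All 24 markers of intestinal epithelial cells were also above 0 in every library, and their summed level was 1546 and 4973 FPKM in control replicates 1 and 3, against 4629 and 11951 FPKM in the libraries labelled Kdm6b-deficient. In bulk RNA, fewer cells of a type and less RNA per cell cannot be told apart.

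The 8 genes were well expressed in all 4 libraries, and the groups differed little. Mean levels over the 4 libraries ran from 21.6 FPKM for Lss to 120 FPKM for Idi1. The largest difference between groups was that of Insig1, at 0.801 times the control level on the FPKM + 1 scale, and the other 7 genes lay between 0.855 and 1.08 times. In a limma test of log2(FPKM + 1) over 12009 genes, which reached 1 FPKM in 2 or more libraries, 0 of the 8 genes had an adjusted p under 0.05. The same was true of all genes tested (0%, with 642 genes at an unadjusted p under 0.05), so the test sets none of them apart. The study called genes by a log2 fold change above 1 or below −1. By this rule on log2(FPKM + 1), which need not be its scale, 0 of the 8 genes were higher (6.20% of all genes tested) and 0 were lower (0.441%). The 95% intervals of all 8 genes lay between −1 and 1, as did those of 52.1% of all genes tested.

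**Figure D1:**
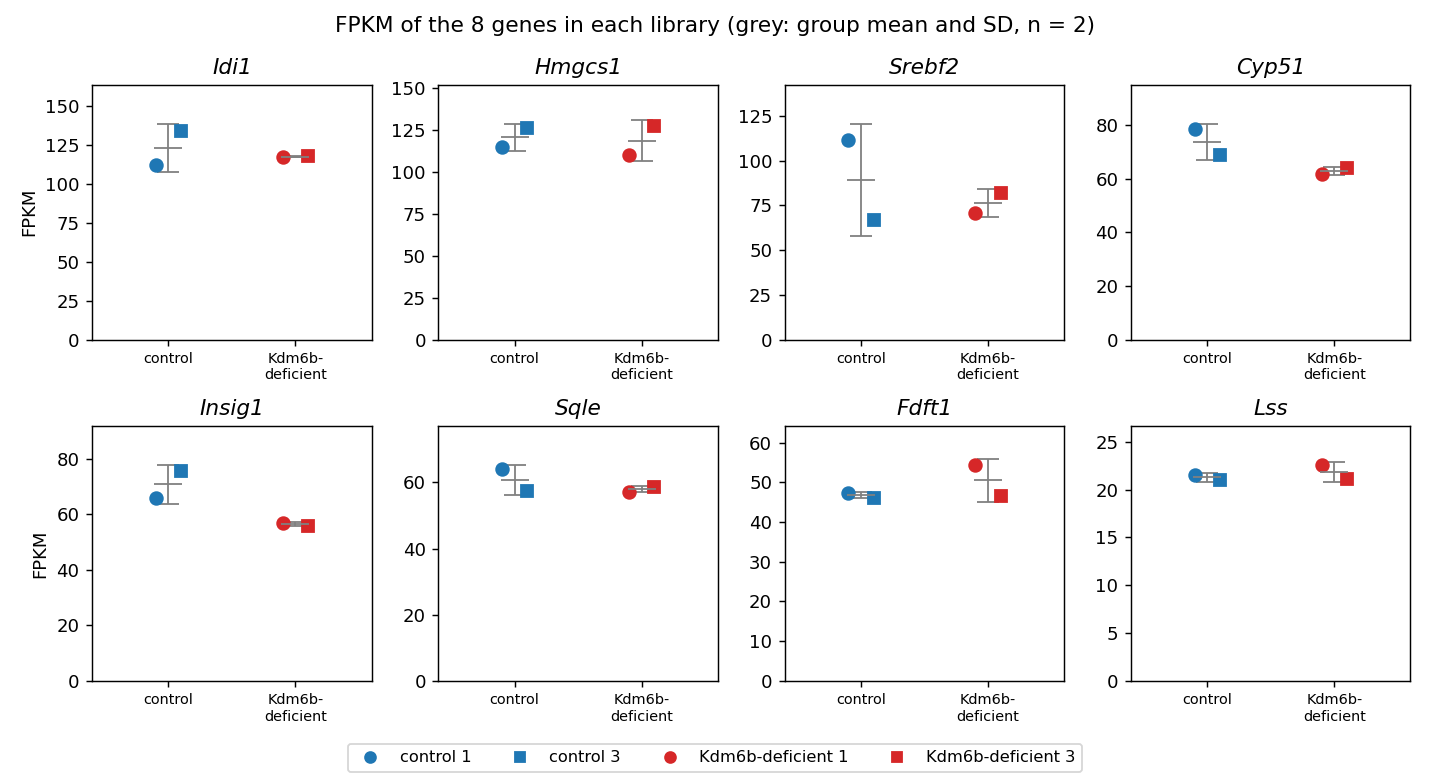
FPKM (vertical axes, from 0) of the 8 genes in the 2 control libraries (blue) and the 2 libraries labelled Kdm6b-deficient (red), replicate 1 as circles and replicate 3 as squares, with the group mean and SD in grey (n = 2). As deposited, Insig1 and Cyp51 had both red points below both blue points, and the groups of the other 6 genes overlapped. Scaling to T cell genes, which moved the all-gene median log2 fold change from 0.001 to 0.34, removed the order of Insig1 and Cyp51.

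Hmgcs1 encodes HMG-CoA synthase, which acts before mevalonate is made. It is Entrez gene 208715 on chromosome 13 of GRCm38 (119690351 to 119708260). It had 114.7 and 126 FPKM in control replicates 1 and 3, against 110.1 and 127 FPKM in the libraries labelled Kdm6b-deficient. In both groups replicate 3 was above replicate 1, and the groups overlapped completely (log2 fold change −0.02, standard error 0.18, 95% interval −0.46 to 0.41, limma adjusted p = 0.977).

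Idi1 encodes isopentenyl diphosphate isomerase, which balances the isoprenoid units from which farnesyl diphosphate is built. It lies at 8885606 to 8892396 on chromosome 13. It had 112 and 134 FPKM in the control pools, against 117.6 and 117.7 FPKM in those labelled Kdm6b-deficient. Both of the latter lay between the control values (log2 fold change −0.06, 95% interval −0.50 to 0.38, limma adjusted p = 0.943).

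Fdft1 encodes squalene synthase, the first step that serves sterols alone (chromosome 14, 63145150 to 63181687). It had 47.3 and 46.2 FPKM in the control pools, against 54.4 and 46.6 FPKM in those labelled Kdm6b-deficient. Kdm6b-deficient replicate 1 stood above the other libraries, which lay close together (log2 fold change 0.10, 95% interval −0.35 to 0.56, limma adjusted p = 0.891). An exon of Fdft1 shares 774 bases with an exon of Ctsb on the other strand, and the strand setting of the authors' counting is not given in the sources used here, so its level is uncertain. The same holds, for shorter shared stretches, for Hmgcs1, Idi1, Lss and Cyp51, which share 150 to 458 exon bases with Gm48342, Gm48574, 4930483K19Rik and Akap9 in that order, on the other strand.

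Sqle encodes squalene epoxidase, which adds the oxygen needed for ring closure (chromosome 15, 59315092 to 59331193). It had 63.9 and 57.5 FPKM in the control pools, against 57.2 and 58.5 FPKM in those labelled Kdm6b-deficient. Control replicate 1 was the highest, and the other libraries lay close together (log2 fold change −0.07, 95% interval −0.49 to 0.36, limma adjusted p = 0.932).

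Lss encodes lanosterol synthase, which closes the sterol ring (chromosome 10, 76531565 to 76557139). It had 21.6 and 20.97 FPKM in the control pools, against 22.6 and 21.1 FPKM in those labelled Kdm6b-deficient. It varied least of the 8 genes, its highest library being 1.08 times its lowest (log2 fold change 0.04, 95% interval −0.46 to 0.53, limma adjusted p = 0.971).

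Cyp51 encodes the lanosterol demethylase, the first oxidative step after lanosterol (chromosome 5, 4080674 to 4104697). It had 78.5 and 68.9 FPKM in the control pools, against 61.7 and 63.8 FPKM in those labelled Kdm6b-deficient. Both libraries labelled Kdm6b-deficient were below both controls as deposited, and the difference between the groups was little more than that between the controls (0.18 on the log2 scale) (log2 fold change −0.23, standard error 0.17, 95% interval −0.66 to 0.20, limma adjusted p = 0.777).

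Insig1 encodes the sterol-sensing protein that retains Scap, and is itself a known target of SREBP2 (Entrez 231070, chromosome 5, 28071412 to 28078662). It had 65.8 and 75.6 FPKM in the control pools, against 56.8 and 55.9 FPKM in those labelled Kdm6b-deficient. The groups did not overlap as deposited, and this was the largest difference among the 8 genes (log2 fold change −0.32, standard error 0.17, 95% interval −0.75 to 0.11, limma adjusted p = 0.755). Between Kdm6b-deficient replicate 1 and control replicate 3, single libraries with similar summed epithelial markers, its log2 difference was −0.41. That of Cyp51 was −0.16, of Hmgcs1 −0.20, of Idi1 −0.19 and of Sqle −0.0074, against 0.23 for Fdft1, 0.10 for Lss and 0.082 for Srebf2. For Insig1 and Cyp51 the sign was fixed, because their groups do not overlap. The part of epithelial RNA in these differences was not tested.

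Srebf2 encodes SREBP2 itself (Entrez 20788, chromosome 15, 82147269 to 82205379). It had 111 and 66.9 FPKM in the control pools, against 70.8 and 81.9 FPKM in those labelled Kdm6b-deficient. Control replicate 1 stood apart from the other 3 libraries, and the controls differed from each other by more (−0.73 on the log2 scale, replicate 3 minus replicate 1) than the groups did (−0.18, standard error 0.28, 95% interval −0.88 to 0.52, limma adjusted p = 0.880). Without control replicate 1 its log2 fold change was 0.19, and without control replicate 3 it was −0.54.

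In 6 of the 8 genes the log2 fold change was smaller than the larger of the gaps between the libraries of a group, the exceptions being Insig1 and Cyp51. In these 2 genes both libraries labelled Kdm6b-deficient were below both controls (18.6% of all genes tested), an order that was lost when libraries were scaled to T cell genes (3.3% of all genes were then lower in both), and in 0 of the 8 were both above (18.4%). Leaving out 1 library at a time, the log2 fold change was −0.42 to −0.22 for Insig1 and −0.32 to −0.13 for Cyp51, whose sign could not turn because the groups do not overlap, and each of the other 6 genes took both signs. The median log2 fold change of the 8 genes was −0.06, beside 0.001 for all genes tested. Scaling the libraries to the summed FPKM of Cd3d, Cd3e, Cd3g, Cd247 and Ptprc moved the all-gene median up to 0.34, and the 8 genes then lay between 0.29 below it (Insig1) and 0.13 above it (Fdft1).

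Ordered by level, Idi1, Hmgcs1, Srebf2, Cyp51, Insig1 and Sqle came first, and neighbours among these 6 overlapped in their range over the 4 libraries. Fdft1 lay below Sqle and Lss below Fdft1 without overlap. Idi1 was 5.59 times as high as Lss in mean FPKM, and this ratio ran from 5.20 to 6.40 across libraries. The level of Srebf2 was 4.10 and 2.97 times that of Srebf1, which encodes the SREBP of fatty acid synthesis, in the control libraries, and 3.85 and 3.89 times in those labelled Kdm6b-deficient. The ratio of Insig1 to Insig2, its paralog that is not raised by SREBP2, was 6.82 and 7.35 in the control libraries and 5.05 and 4.22 in those labelled Kdm6b-deficient. This ratio did not overlap between the groups. That follows from Insig1 being lower and Insig2 higher in both libraries labelled Kdm6b-deficient, orders that 18.6% and 18.4% of all genes tested had. With 2 libraries against 2 an exact permutation test cannot give a two-sided p below 0.333.

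Most of the 8 genes varied little from library to library. The SD of log2(FPKM + 1) over the 4 libraries had a median of 0.11 over the 8 genes, beside 0.28 for all genes tested and 0.23 for the 6892 genes with a mean of at least 10 FPKM. It was 0.33 for Srebf2, above the median of all genes, and between 0.046 and 0.20 for the other 7. Relative to control replicate 1, the geometric mean of the 8 genes was 0.954 in control replicate 3, 0.910 in Kdm6b-deficient replicate 1 and 0.922 in Kdm6b-deficient replicate 3. Over the same libraries the 24 epithelial markers were at 2.95, 2.54 and 6.75 times, and the 9 T cell markers at 0.821, 0.768 and 0.558 times. The part of epithelial RNA in the levels of the 8 genes was not tested.

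**Figure D2:**
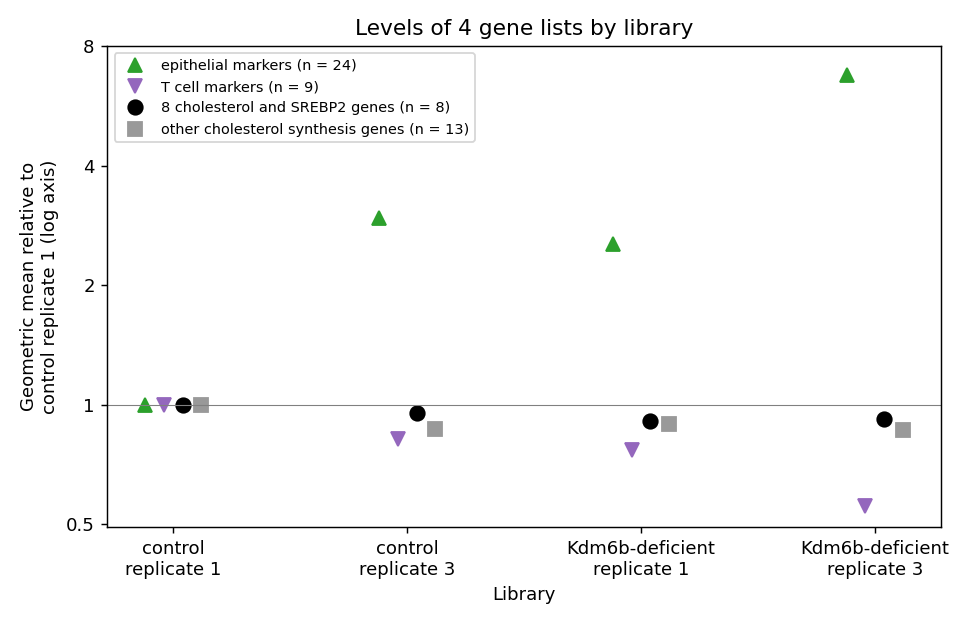
Geometric mean of FPKM + 1 relative to control replicate 1 (log axis) in each library for the 8 genes (black), 13 other cholesterol synthesis genes (grey), 24 epithelial markers (green) and 9 T cell markers (purple). The 8 genes stayed between 0.910 and 1, while the epithelial markers reached 6.75 and the T cell markers 0.558 in Kdm6b-deficient replicate 3.

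Among 6798 genes outside the lists with a mean of at least 10 FPKM, those whose deviations over the 4 libraries were nearest to the mean deviations of the 8 genes were Ubap2l, Rpl19, Rplp1, Foxn2 and Ttc17, with root mean square distances of 0.007 to 0.017 on the log2 scale. Ubap2l had 114.8 and 109 FPKM in the control pools, against 105 and 105 FPKM in those labelled Kdm6b-deficient. With 913 genes within a distance of 0.1, this flat profile was shared by many genes, and 4 libraries cannot set such genes apart.

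A set of 13 other enzymes of cholesterol synthesis had a median log2 fold change of −0.09, which was 0.0036 without control replicate 1 and −0.16 without control replicate 3. Of these genes 0 were called by limma, 0 were past a log2 fold change of 1 either way, 0 stood higher in both libraries labelled Kdm6b-deficient (18.4% of all genes tested) and 3 stood lower (18.6%) as deposited.

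Mvd, which makes isopentenyl diphosphate, had 57.5 and 36.6 FPKM against 37.3 and 39.4 FPKM, with control replicate 1 apart from the rest. Fdps, which makes farnesyl diphosphate and was the most abundant enzyme of the list, had 275 and 218 FPKM against 239 and 213 FPKM. Msmo1, a sterol methyl oxidase, had 113 and 113 FPKM against 117 and 110.0 FPKM. These 3 genes overlapped between the groups.

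The lowest log2 fold change of the list was that of Sc5d, a sterol desaturase, at −0.39 (standard error 0.17, 95% interval −0.80 to 0.03, limma adjusted p = 0.755), with 75.9 and 72.5 FPKM against 58.8 and 54.5 FPKM. The highest was that of Tm7sf2, a sterol reductase, at 0.28, with 10.2 and 6.64 FPKM against 9.65 and 10.8 FPKM, which overlapped, and it was 0.0021 without control replicate 3 and 0.55 without control replicate 1. Lbr, the lamin B receptor that has the same reductase activity as Tm7sf2, was 13.5 times as high in mean FPKM. Dhcr7, the last enzyme of one branch, had 36.8 and 35.0 FPKM against 27.2 and 35.8 FPKM. Of the 19 enzymes, 11 had means above 50 FPKM, and Tm7sf2 had the lowest mean, 9.31 FPKM.

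**Figure D3:**
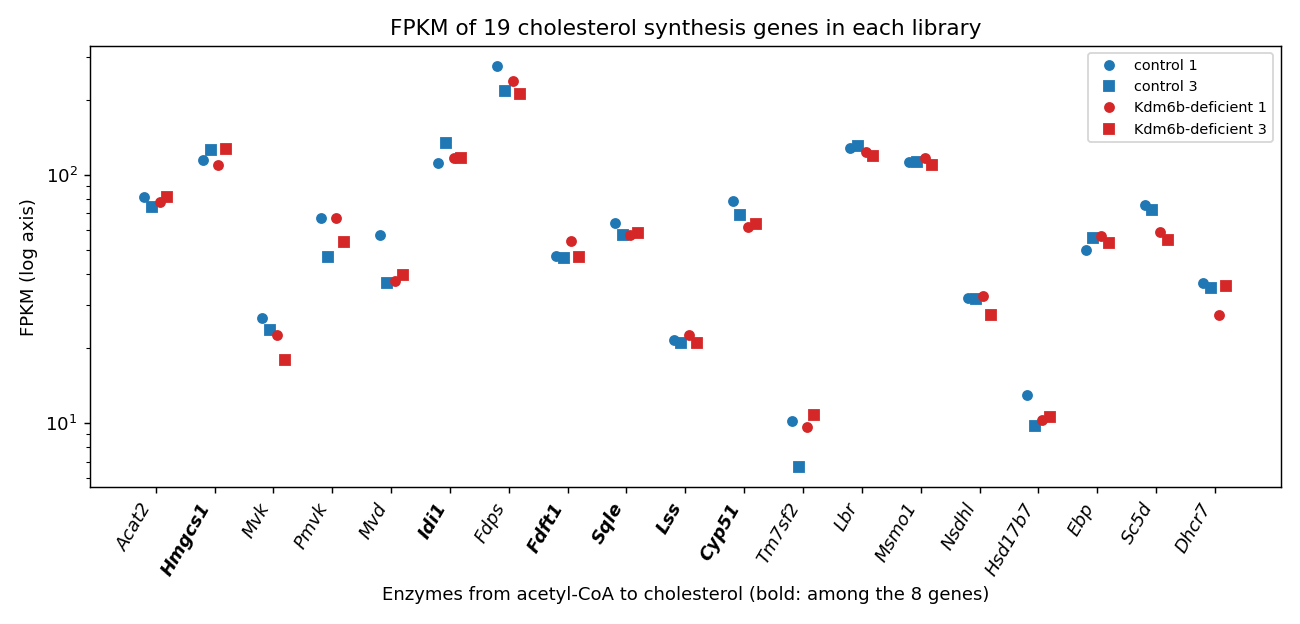
FPKM (log axis) of 19 cholesterol synthesis genes in the order of the pathway, with 6 of the 8 genes in bold, for the 2 control libraries (blue) and the 2 labelled Kdm6b-deficient (red). Levels ran from Fdps, at 275 FPKM in control replicate 1, to Tm7sf2, at 6.64 FPKM in control replicate 3, and differences between genes were far larger than those between libraries.

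Among the other 11 genes of SREBP control, 0 were called by limma, 2 stood above and 1 below the controls in both libraries labelled Kdm6b-deficient, as deposited (18.4% and 18.6% of all genes tested). Scap had 12.1 and 8.71 FPKM in the control pools, against 10.2 and 11 FPKM in those labelled Kdm6b-deficient. The Golgi proteases that release SREBP2, Mbtps1 and Mbtps2, had log2 fold changes of −0.12 and −0.06, and both overlapped between the groups. Without Kdm6b-deficient replicate 1 that of Mbtps1 was 0.081. Insig2 had 9.65 and 10.3 FPKM against 11.2 and 13.2 FPKM (log2 fold change 0.27, 95% interval −0.34 to 0.88), and Srebf1 had 27.2 and 22.5 FPKM against 18.4 and 21.1 FPKM (log2 fold change −0.32, 95% interval −0.86 to 0.23). Neither group pair overlapped, in opposite directions as deposited, and the values were 0.16 for Insig2 without Kdm6b-deficient replicate 3 and −0.18 for Srebf1 without control replicate 1. The highest value of the list was that of Erlin2, which takes part in the breakdown of endoplasmic reticulum proteins, at 0.74, with 7.41 and 10.4 FPKM against 9.71 and 24.1 FPKM, and it was 0.13 without Kdm6b-deficient replicate 3.

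**Figure D4:**
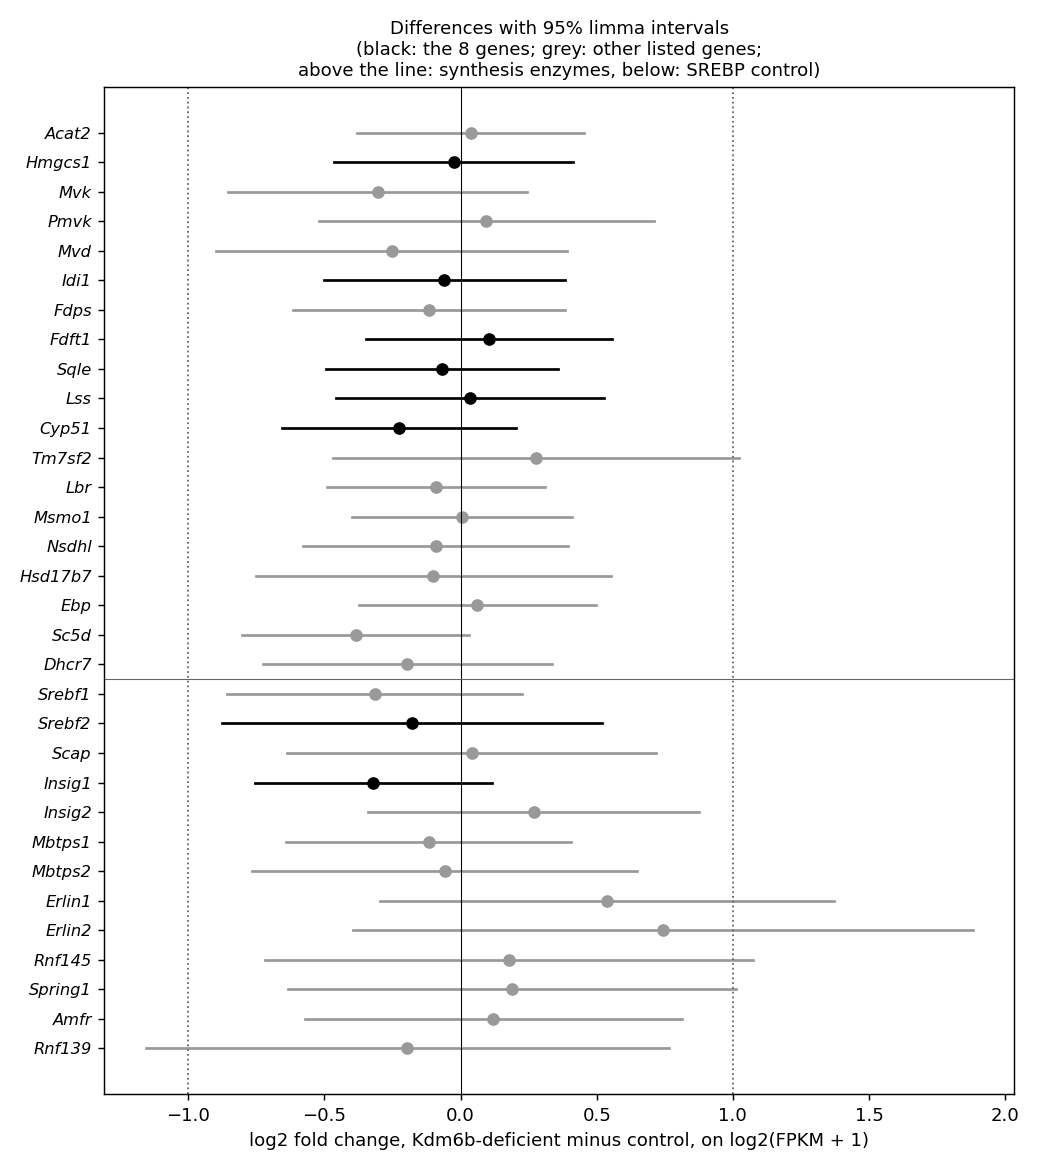
Log2 fold change on log2(FPKM + 1), Kdm6b-deficient minus control (points), with 95% limma intervals (lines), for 19 cholesterol synthesis genes and 13 genes of SREBP control, the 8 genes in black and the others in grey, with dotted lines at −1 and 1. The intervals of the 8 genes all include 0 and lie inside the dotted lines.

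The list of sterol uptake and transport had 14 of 15 genes tested, with a median log2 fold change of −0.09, and 0 called by limma. Stard4, a sterol carrier and SREBP2 target, had 41.8 and 41.9 FPKM against 37.0 and 44.2 FPKM. The controls lay between the libraries labelled Kdm6b-deficient. Npc1, which exports cholesterol from lysosomes, was between 3.77 and 5.50 FPKM, and Scarb1, a receptor for HDL, had the lowest log2 fold change of the list at −0.44 (5.01 and 6.63 FPKM against 4.38 and 3.65 FPKM).

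Npc1l1, an intestinal sterol transporter, had the highest log2 fold change of the list, at 1.25 (2.13 and 7.97 FPKM against 6.37 and 20.5 FPKM), with overlapping groups. It was 0.48 without Kdm6b-deficient replicate 3 and 0.49 without control replicate 1. Of the 14 genes, 2 were past a log2 fold change of 1 (6.20% of all genes tested), Npc1l1 (1.25) and Lrp1 (1.10), and 0 were without control replicate 1 or without Kdm6b-deficient replicate 3. Both had their lowest value in control replicate 1 and their highest in Kdm6b-deficient replicate 3, as the epithelial markers did. The part of epithelial RNA in their values was not tested.

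The list of sterol efflux and esterification had 12 of 15 genes tested and a median log2 fold change of 0.68. Of these genes 0 were called by limma, 4 had a log2 fold change above 1 (6.20% of all genes tested) and 5 were higher in both libraries labelled Kdm6b-deficient (18.4% of all genes tested). The 4 genes were Abcg5, a sterol exporter (log2 fold change 1.51, 3.64 and 9.30 FPKM against 13.1 and 26.6 FPKM), and Mttp (1.36), Apoa1 (1.36) and Apob (1.17), which are known for lipoprotein assembly in enterocytes. Without control replicate 1 none of these was past 1 (Abcg5 at 0.94) and 1 gene of the list, Apoe, was, and without Kdm6b-deficient replicate 3 only Abcg5 of the list was. Apoa1 is itself in the list of epithelial markers, which had a median of 1.33, with 20 of 24 genes past a log2 fold change of 1, against 0 without control replicate 1 and 2 without Kdm6b-deficient replicate 3. Krt18 (1.71, and 0.82 without control replicate 1) was the highest of those markers and Cdh1 (0.67, and −0.019 without Kdm6b-deficient replicate 3) the lowest. Abcg1, a sterol exporter known in T cells, had 18.3 and 14.9 FPKM against 21.3 and 10.2 FPKM and overlapped. Abca1, at 0.7 to 1 FPKM, did not pass the filter. Soat1 and Soat2, which esterify cholesterol, had log2 fold changes of 0.43 and −0.19, the latter the lowest of the list, and 0.26 and 0.054 without control replicate 1.

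The SREBP1 targets of fatty acid synthesis had 13 of 16 listed genes tested and a median log2 fold change of 0.03, with 0 called by limma. Acly, ATP citrate lyase, had 84.7 and 84.2 FPKM in the control pools, against 71.6 and 76.3 FPKM in those labelled Kdm6b-deficient. Fasn, fatty acid synthase, had 17.7 and 13.3 FPKM against 11.5 and 14.8 FPKM. The desaturase Scd2 was between 14.0 and 18.1 FPKM, and its paralog Scd1, under 0.6 FPKM in every library, did not pass the filter. The extremes were the fatty acid elongase Elovl5 (log2 fold change −0.55, 120 and 91.2 FPKM against 84.3 and 60.04 FPKM) and the desaturase Fads2 (0.88, 12.3 and 22.4 FPKM against 18.4 and 53.5 FPKM). Without Kdm6b-deficient replicate 3 the value of Fads2 was 0.14 and that of Elovl5 was −0.31. Of the 11 genes of the isoprenoid branches 0 were called, with a median of 0.04, Ggps1 the lowest (−0.38) and Fnta, a subunit of the protein prenyltransferases, the highest (1.14, 11.7 and 6.45 FPKM against 23.6 and 17.7 FPKM). Fnta was at 0.76 without control replicate 3. With an epithelial covariate in the model it was at 1.65 and was called (limma adjusted p = 0.0062). That model called 131 of 12009 genes and leaves 1 residual degree of freedom.

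The markers of T cells had a median log2 fold change of −0.52, from Zap70 (−0.55) to Ptprc (−0.33, and 0.052 with T cell gene scaling and −0.083 without Kdm6b-deficient replicate 3), and 6 of 9 were lower in both libraries labelled Kdm6b-deficient as deposited (18.6% of all genes tested). Of the B and myeloid markers 6 of 9 were tested, from Cd79a (−0.13) to Lyz2 (0.71), and their summed level was 472 and 318 FPKM in the control pools, against 505 and 718 FPKM in those labelled Kdm6b-deficient. Lyz2 made up most of that sum, and without it the sums were 107 and 64.4 FPKM against 109 and 92.9 FPKM. The part of either in the values of the cholesterol genes was not tested.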

How the data were processed

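RNA was sequenced on HiSeq by BGI. Per the labels (submitters' processing notes, for builds and versions) and the methods of the study, the authors mapped clean reads to mm10 (GRCm38.p5) with HISAT and Bowtie2 2.2.5 and quantified genes with RSEM 1.2.8. The deposited values are FPKM, which the authors had scaled to transcript length and mapped fragments, for 19339 genes in each of 4 libraries (2 groups of 2). FPKM totals ran from 578491 to 646671 per library. Read totals were not used here, so no counting interval was computed.

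Entrez identifiers were matched to symbols in RefSeq GRCm38.p6 (18467 matched, 114 without a symbol), and 758 rows are predicted transcripts. Values were used as log2(FPKM + 1) for 12009 genes (1 FPKM or more in 2 or more libraries). They were tested with limma 3.58.1 (R 4.3.3, lmFit, eBayes with a trend, Benjamini-Hochberg adjustment over all genes tested). The fit was also run on simulated data with noise independent between genes, which does not reproduce differences that many genes share between libraries. Differences are Kdm6b-deficient minus control. Depth was estimated from 17 to 57 genes per library with a single GENCODE transcript. Tables were handled with pandas 2.3.3.

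The 8 genes and the lists were chosen with earlier results of these data known. Genes named with values are Kdm6b, the 8 genes and a set of known regulators and targets. Genes with the highest and lowest log2 fold change of each list are also named, as is Ubap2l, the nearest in profile to the 8 genes. Lbr and those past a log2 fold change of 1 in 2 lists were named after their values were seen. The log2(FPKM + 1) scale understates changes of low genes. Some genes of the lists are not reported here, and the list counts leave them out. Alternatives changed the pseudocount, filter, scaling, model terms and libraries.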

Additional observations from a re-analysis of the deposited data

How the results depend on the processing

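Under each alternative 0 of the 8 genes were called and 0 were past a log2 fold change of 1. With T cell gene scaling the all-gene median moved to 0.34, the medians to 0.31 for the 8 genes and 0.28 for 13 other enzymes, 1381 genes were past a log2 fold change of 1 up and 26 down, and 2 of the 8 genes stood higher and 0 lower without overlap, beside 35.1% and 3.3% of all genes. Under it the log2 fold changes turned positive for Hmgcs1 (0.35), Sqle (0.31), Idi1 (0.32), Cyp51 (0.15), Insig1 (0.055), Srebf2 (0.20) and Kdm6b (0.17). The same held for Mvd (0.12), Fdps (0.26), Dhcr7 (0.18), Srebf1 (0.050), Mbtps1 (0.25), Mbtps2 (0.26), Stard4 (0.32), Npc1 (0.16), Abcg1 (0.20), Soat2 (0.18), Fasn (0.14), Acly (0.19), Ptprc (0.052) and Cd79a (0.15), since the construction shifts all genes up. With the mean level of the epithelial markers as a covariate, which leaves 1 residual degree of freedom, 131 genes were called, 346 and 102 were past a log2 fold change of 1 up and down, and the median of 13 other enzymes was 0.028. The sign turned for Srebf2 (0.063), Kdm6b (0.11), Mvd (0.0019), Fdps (0.10), Npc1 (0.10), Abcg1 (0.38), Soat2 (0.20), Fads2 (−0.085), Npc1l1 (−0.055), Cdh1 (−0.13) and Cd79a (0.22). Fnta became a call (1.65, limma adjusted p = 0.0062). Without a change of sign, Abcg5 was at 0.61, Krt18 at 0.46, Tm7sf2 at 0.46, Erlin2 at 0.047, Elovl5 at −0.18, Ggps1 at −0.19, Zap70 at −0.17 and Ptprc at −0.096. The cause of these changes was not tested. The 744 higher and 53 lower genes became 1203 and 178 with a pseudocount of 0.1, and 1254 and 197 with 0.01. The lower genes were 34 with a filter of at least 5 FPKM and 97 with quantile normalization. Quantile normalization turned Scap (−0.031), and median-of-ratios scaling turned Msmo1 (−0.0081).

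Leaving out 1 library at a time, with the lone library of a group assumed to vary like the other group, gave 305 (without control replicate 1) to 1314 (without Kdm6b-deficient replicate 1) higher genes and 59 to 263 lower genes. Of the 8 genes, 1 to 3 then stood higher and 2 to 4 lower without overlap, an easier criterion with 3 libraries that 28.9% to 39.2% of all genes met upward and 28.6% to 39.4% downward, and their median log2 fold change was −0.10 to −0.042, and that of the 13 other enzymes −0.16 to 0.0036. Ranges were −0.13 to 0.078 for Hmgcs1, −0.14 to 0.0085 for Sqle, −0.19 to 0.068 for Idi1, −0.0047 to 0.21 for Fdft1, −0.012 to 0.082 for Lss, −0.54 to 0.19 for Srebf2 and −0.52 to 0.16 for Kdm6b. Among the other genes they were −0.57 to 0.066 for Mvd, −0.28 to 0.053 for Fdps, −0.040 to 0.051 for Msmo1, −0.17 to 0.26 for Scap, −0.32 to 0.081 for Mbtps1, −0.18 to 0.077 for Stard4 and −0.32 to 0.020 for Npc1. For Abcg1 the range was −0.65 to 0.35, for Soat2 −0.43 to 0.054, for Scd2 −0.12 to 0.23, for Cdh1 −0.019 to 1.35 and for Cd79a −0.49 to 0.23. Without a change of sign, ranges were −0.57 to −0.083 for Ptprc, 0.16 to 0.38 for Insig2, −0.45 to −0.18 for Srebf1, −0.12 to −0.0014 for Mbtps2, 0.26 to 0.60 for Soat1, −0.39 to −0.0054 for Dhcr7, −0.41 to −0.030 for Fasn, 0.13 to 1.36 for Erlin2, 0.48 to 2.02 for Npc1l1, 0.0021 to 0.55 for Tm7sf2, 0.94 to 2.09 for Abcg5, 0.14 to 1.63 for Fads2, 0.82 to 2.60 for Krt18, −0.79 to −0.31 for Elovl5, −0.55 to −0.21 for Ggps1, 0.76 to 1.53 for Fnta, −0.61 to −0.26 for Scarb1, −0.81 to −0.30 for Zap70 and 0.38 to 1.04 for Lyz2.

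Both groups have replicates numbered 1 and 3, and the sources used here do not say that a number marks a shared batch or day. Across 12009 genes, the deviations of same-numbered libraries from their group means correlated with r = 0.56, which with 2 pairs does not establish a pairing. With a replicate block limma called 1019 genes (886 higher, 133 lower) but 0 of the 8 genes and 0 of the 19 enzymes, and the lowest adjusted p of the 8 was 0.244 for Insig1. Among the other genes named with values it called Npc1l1, Lrp1, Abcg5, Mttp, Apoa1, Apob, Elovl5, Fads2, Fnta, Krt18 and Zap70.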
